A study of Mus musculus with 9 samples.

Results

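The myeloid transcription factors described here are Cebpa, Cebpb, Cebpd, Cebpe, Spi1, Irf8, Gfi1, Zeb2 and Id2, 9 of the 21939 genes of the count table, taken by gene symbol and not by their values. Their mRNA was sequenced in 9 libraries, 3 per group, of LT-HSCs (long-term haematopoietic stem cells) taken by cell sorting from the bone marrow of C57BL/6 mice. The aged+Ri cells came from mice over 80 weeks old and were treated with 100 µM Rhosin, which blocks RhoA, a GTPase that controls the actin cytoskeleton. The aged cells came from mice of the same age and had no inhibitor, and the young cells came from mice of 10 to 16 weeks. The cells of all 3 groups were negative for lineage markers, CD34 and Flt3, positive for Sca1 and cKit, and were held outside the animal for 16 h in salt solution with 10% serum at 3% oxygen before RNA was taken, so no group shows freshly isolated cells. The labels call the libraries biological replicates without giving the number of mice in each, and p-values therefore measure the spread between these libraries. No young cells with Rhosin were analysed here, so an action of the inhibitor that depends on age cannot be told apart from one that does not.

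These factors set the myeloid programme of blood cells, and several are already transcribed at a low level in stem cells. PU.1, the ETS protein encoded by Spi1, works with the leucine-zipper proteins of the C/EBP family on the genes of granulocytes and monocytes, and partners Irf8 on those of monocytes and dendritic cells. Gfi1 is a repressor that favours neutrophils over monocytes and restrains stem cell division in the mouse, Zeb2 is a zinc-finger repressor used by monocytes and dendritic cells, and Id2 binds E proteins and keeps them off DNA.

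Library totals were between 34358101 and 72503142 counts, and 15127 genes with enough counts were tested, all 9 factors among them. Fewer genes were detected in aged+Ri (15387 to 16697) and aged libraries (15333 to 18288) than in young libraries (20308 to 21272). The 12 LT-HSC markers examined were detected in every library, and summed to 1307 to 2270 CPM in aged+Ri, 1961 to 2655 CPM in aged and 1873 to 3112 CPM in young libraries, where CPM is the count scaled to a common library size after TMM normalisation. Cd34, whose protein was gated out, still had 8.001 to 34.3 CPM in aged+Ri, 27.6 to 71.96 CPM in aged and 7.96 to 95.7 CPM in young libraries. Markers of mature cells were present at uneven levels and are given beside the factors they move with. In these bulk samples, fewer cells of a type and less RNA per cell cannot be told apart. Transcripts of 4 Y-linked genes summed to 178 CPM in young 2 and 398 CPM in young 3 and to at most 1.63 CPM in each of the other libraries. Young 2 and young 3 thus hold RNA of male cells. Values with young 1 as the only young library are given for several of the results below, and not for all.

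Proximal promoters from RefSeq (GRCm38.p6) were available for 6 of the 9 factors. Those of Cebpb and Cebpa are shown because these C/EBP genes stood near opposite ends of the abundance range and differed from the controls in opposite directions in aged+Ri cells, and that of Irf8 because aged+Ri 3 held far more of it than the other aged+Ri libraries. Each is the 250 bases before the annotated start, 5′ to 3′ on the + strand. Capitals mark TGACG or its reverse complement CGTCA, the core of the cAMP response element, and TATAAA, the TATA box.
Cebpb, chr2:167688665-167688914: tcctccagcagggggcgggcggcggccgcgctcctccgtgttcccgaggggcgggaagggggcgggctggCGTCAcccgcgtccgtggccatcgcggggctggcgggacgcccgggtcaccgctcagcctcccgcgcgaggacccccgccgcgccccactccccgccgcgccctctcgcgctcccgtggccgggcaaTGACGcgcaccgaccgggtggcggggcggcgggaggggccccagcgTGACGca
Cebpa, chr7:35119043-35119292: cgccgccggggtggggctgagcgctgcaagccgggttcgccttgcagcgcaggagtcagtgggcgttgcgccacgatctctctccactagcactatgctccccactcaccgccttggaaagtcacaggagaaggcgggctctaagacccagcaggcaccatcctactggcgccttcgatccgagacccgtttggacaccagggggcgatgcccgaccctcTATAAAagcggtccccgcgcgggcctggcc
Irf8, chr8:120736108-120736357: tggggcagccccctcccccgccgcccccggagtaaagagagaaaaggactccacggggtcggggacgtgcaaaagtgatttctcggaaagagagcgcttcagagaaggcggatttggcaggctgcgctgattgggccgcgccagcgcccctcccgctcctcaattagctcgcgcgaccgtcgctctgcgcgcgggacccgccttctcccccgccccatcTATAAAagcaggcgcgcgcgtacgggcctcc
The Cebpb window had 81.6% G and C and held 3 matches to TGACG on either strand, at 180 to 176, 53 to 49 and 7 to 3 bases before the start. At least 1 such match occurred in 17.7% of 32817 promoter windows of this length, and 3 or more in 0.689%. The Cebpa window (66.4% G and C) had none, and held TATAAA at 30 to 25 bases before the start. TATAAA also lay in the first of 2 Irf8 windows, at 31 to 26 bases before the start, and in 12.4% of all windows. Both strands were also searched for letters taken to stand for C/EBP (TTGCNNAA, in 9.57% of windows), PU.1 (GAGGAAGT, 2.44%), IRF (GAAA, 2 bases of any kind and GAAA, 2.97%), ZEB (CACCTG, 17.2%) and Gfi1 (AAATCAC, 2.75%), none of which the Cebpb or Cebpa window contained. The first Irf8 window held the Gfi1 letters, the second the ZEB letters, and the first Gfi1 window the C/EBP and ZEB letters. Of 4 Zeb2 windows, the first held the C/EBP letters and the second and the third, which overlap, held TGACG. A match here describes the letters and not a bound site.

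In aged+Ri and aged cells Spi1, Cebpb and Id2 lay above the other factors without overlap. Per kilobase of exon, aged+Ri cells had 69.0 ± 8.38 CPM per kb of Spi1, 67.4 ± 1.72 of Cebpb and 34.1 ± 12.7 of Id2 (mean ± SD, n = 3 libraries, as throughout). Next came Zeb2 at 2.76, Cebpd at 1.97, Gfi1 at 0.949 and Irf8 at 0.486 CPM per kb, then Cebpa at 0.00357, with Cebpe listed at 0. Spi1 and Cebpb overlapped in this order, Cebpb lay above Id2 and Id2 above Zeb2 without overlap. Irf8 in aged+Ri 1 and 2 rested on 3 and 5 counts, at or near the 3 counts that a count of 0 allows, so its order against Cebpa is not shown. In aged cells the order was Spi1 (38.6 CPM per kb), Id2 (36.3), Cebpb (35.6), Cebpd (6.09), Zeb2 (4.36), Gfi1 (3.09), Cebpe (2.33), Irf8 (0.625) and Cebpa (0.131). There the libraries of neighbouring genes separated between Cebpb and Cebpd and between Irf8 and Cebpa. In young cells it was Spi1 (35.2 CPM per kb), Cebpb (24.6), Id2 (17.0), Gfi1 (9.02), Zeb2 (5.39), Irf8 (2.64), Cebpd (1.23), Cebpe (0.791) and Cebpa (0.385), and every pair of neighbours overlapped. Zeb2 has 29 annotated transcripts over 19942 bases of exon, so its level per kilobase is understated where shorter forms are made.

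**Figure D1:**
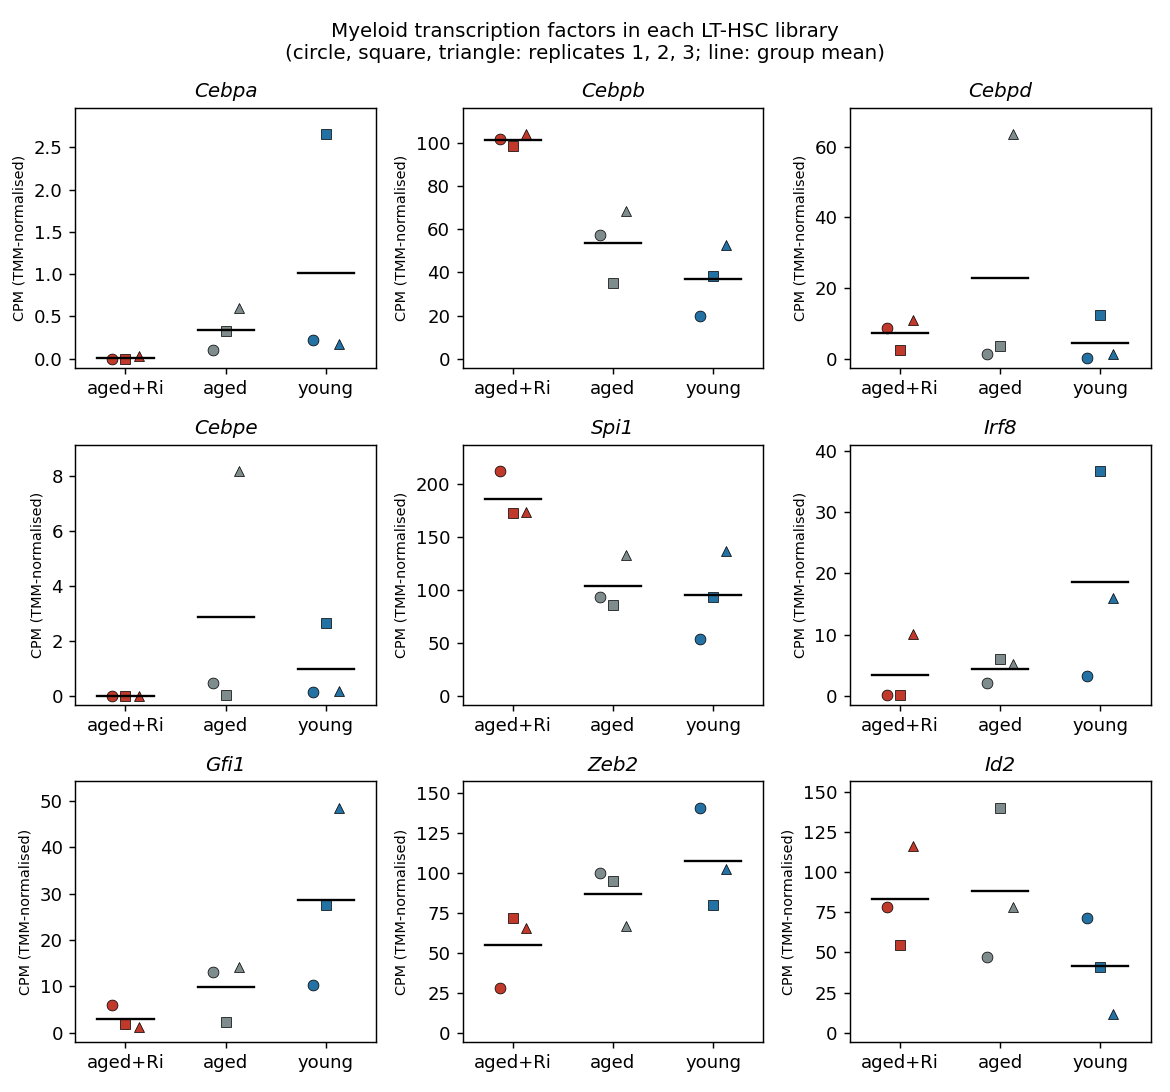
TMM-normalised CPM of the 9 factors in each library (points), with 1 panel per gene and the groups aged+Ri, aged and young from left to right; horizontal bars are group means. Cebpb and Spi1 lie higher in the 3 aged+Ri libraries than in the 6 others, while the highest Cebpd and Cebpe values come from aged 3.

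None of the 9 factors passed an adjusted p of 0.05 by edgeR's quasi-likelihood F-test with Benjamini-Hochberg adjustment over the genes tested, in any of the 3 comparisons. For aged+Ri against aged this was also so for every other gene (0% of genes), for aged against young 0.0331% of genes passed, and for aged+Ri against young 1.45% did (0.959% higher and 0.489% lower). At an unadjusted p of 0.05, 4 of 9 factors passed for aged+Ri against aged (2 higher and 2 lower, against 9.14% of all genes, with 4.24% higher and 4.89% lower), 0 of 9 for aged against young (16.2% of genes) and 6 of 9 for aged+Ri against young (2 higher and 4 lower, against 23.4% of genes, with 9.06% higher and 14.4% lower). The same factors were those whose groups did not overlap, which applied to 16.5% of all genes for aged+Ri against aged (7.85% higher and 8.66% lower), 24.7% for aged against young (8.59% higher and 16.1% lower) and 32.3% for aged+Ri against young (12.4% higher and 19.9% lower). For aged+Ri against aged the 2 lower factors were Cebpa and Cebpe, with 1 and 0 counts in all aged+Ri libraries, which passed the low-count filter through the other groups and are also among the 4 lower ones against young, so their place in these counts supports nothing. The separation of Cebpe from aged cells is also not shown above the limit that a count of 0 allows, since aged 2 held 2 counts of it. In DESeq2, 1, 0 and 4 factors passed in the 3 comparisons, where 320, 744 and 1862 of all genes did. Cebpe was the 1, and Cebpa and Cebpe were among the 4. As both passed the low-count filter through the other groups, these calls of them support nothing. The 2 comparisons with aged+Ri share those 3 libraries, as the comparisons with aged cells share the aged ones, and they are therefore not independent of each other.

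The median log2 change of the 9 factors was -0.66 for aged+Ri against aged, where that of all genes tested was -0.06. It was 0.13 for aged against young, with -0.13 over all genes, and -0.97 for aged+Ri against young, with -0.24 over all genes. In both comparisons of aged+Ri cells the median factor was Zeb2, which stays so when Cebpa and Cebpe are placed at the ratios of their counts given below.

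**Figure D2:**
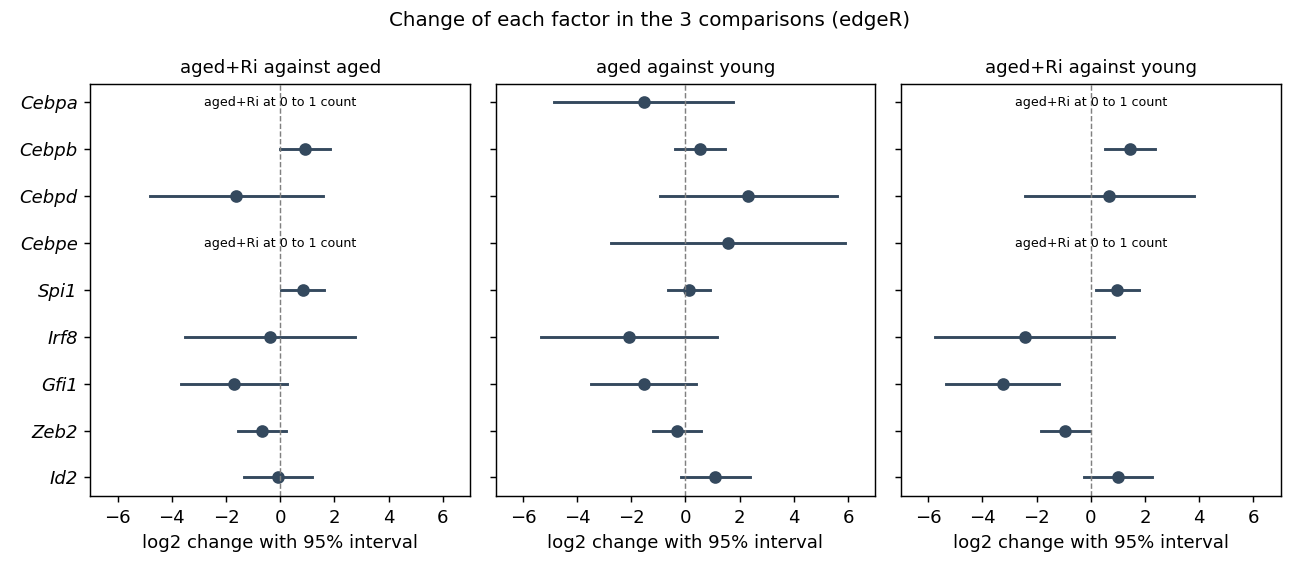
Log2 change of each factor in the 3 comparisons (points) with its 95% interval from edgeR's quasi-likelihood fit (bars); 0 is no difference. Cebpa and Cebpe are left out where aged+Ri cells had 0 or 1 count. Intervals of Cebpb and Spi1 lie above 0 in both comparisons of aged+Ri cells, and those of Cebpd and Irf8 are wide.

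Cebpb, a C/EBP factor used when granulocyte output is raised and in macrophages, is a gene without introns on the + strand of chromosome 2 (GRCm38, chr2:167688915-167690418). It had 102, 98.6 and 104 CPM in aged+Ri libraries 1, 2 and 3, against 57.3, 34.9 and 68.6 CPM in aged libraries and 19.96, 38.3 and 52.7 CPM in young libraries. The aged+Ri libraries were nearly equal, with a coefficient of variation of 2.57%, against 32.0% in aged and 44.3% in young libraries, and all lay above the 6 others, whose 2 groups overlapped. The log2 difference was 0.92 ± 0.42 (SE) for aged+Ri against aged, with a 95% interval of 0.01 to 1.83, and adjusted p = 0.544 by edgeR. Against young it was 1.45 ± 0.43 for aged+Ri, with an interval of 0.53 to 2.38, and adjusted p = 0.0902 by edgeR. Without young 3 the adjusted p in edgeR was 0.0461, and with each other library left out it was 0.0816 or higher. With young 2 and young 3 left out, the difference was 2.40 (adjusted p = 0.0215 in edgeR). For aged against young it was 0.54 ± 0.42 (adjusted p = 0.551 in edgeR), and 1.49 with young 2 and young 3 left out (adjusted p = 0.166).

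Within a sequencing batch the Cebpb difference of aged+Ri cells kept its direction. On the log2(CPM + 1) scale, aged+Ri exceeded aged by 0.81 in batch 1 and by 1.51 in batch 2, and exceeded young by 1.38 in batch 2. Aged against young gave -0.13 in batch 2 and 0.37 in batch 3. The Cebpb locus overlaps Tmem189 on the opposite strand, and no source used here says that reads were counted by strand. Tmem189 had 13.6, 27.04 and 14.7 CPM in aged+Ri libraries, 25.3, 19.4 and 25.1 CPM in aged libraries and 8.27, 26.6 and 2.18 CPM in young libraries, which does not follow the Cebpb order.

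Cebpa, the C/EBP factor that starts granulocyte differentiation in the mouse, was close to absent after Rhosin. Its gene has 1 exon, at chr7:35119293-35121928 on the + strand (GRCm38), and overlaps an antisense gene, Gm45091. The libraries held 0, 0 and 1 counts in aged+Ri, 8, 18 and 38 counts in aged and 11, 104 and 6 counts in young cells. In CPM these were 0, 0 and 0.0282 in aged+Ri, 0.109, 0.325 and 0.604 in aged and 0.222, 2.65 and 0.171 in young libraries, while 3 counts, the limit that a count of 0 allows, correspond to 0.0410 to 0.0855 CPM in the 9 libraries. All aged+Ri libraries were below all others, and young 2 stood above the rest.

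Over the libraries of a group, the Cebpa level in aged+Ri was 0.0232 times that in aged cells, with an exact Poisson 95% interval of 0.000579 to 0.134. It was 0.00793 times that in young cells, with an interval of 0.000199 to 0.0450. These intervals cover counting error only. In edgeR the adjusted p was 0.464 for aged+Ri against aged and 0.0966 for aged+Ri against young. Young 2 held 104 of the 121 young counts, and without it the aged+Ri level was 25.9-fold lower than young, against 126-fold lower with it. Without aged 3 it was 26.1-fold lower than aged, against 43.1-fold lower with it. Aged against young gave -1.55 ± 1.53 on the log2 scale (adjusted p = 0.652 in edgeR), and 0.89 without young 2. Within batches on the log2(CPM + 1) scale, which understates changes of scarce genes, aged+Ri minus aged was -0.15 in batch 1 and -0.39 in batch 2.

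Cebpe, which drives the later steps of neutrophil maturation and the secondary granules, was listed at 0 in all 3 aged+Ri libraries. This gene of 2 exons lies at chr14:54710360-54712174 on the - strand (GRCm38). Its counts were 0, 0 and 0 in aged+Ri, 33, 2 and 514 in aged and 6, 104 and 6 in young libraries, and its CPM were 0.451, 0.0361 and 8.17 in aged and 0.121, 2.65 and 0.171 in young libraries. Aged 3 and young 2 held nearly all of the counts of their groups.

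With 3 counts over the aged+Ri group as the floor, Cebpe was at least 123-fold lower in aged+Ri than in aged cells and at least 40.3-fold lower than in young cells. Without aged 3 the first bound was 11.7-fold and rested mostly on the 33 counts of aged 1. Without young 2 the second bound was 6.10-fold. The adjusted p in edgeR was 0.389 for aged+Ri against aged and 0.122 for aged+Ri against young. DESeq2 gave adjusted p-values of 0.00616 and 0.0112 for Cebpe in these 2 comparisons. Cebpe passed the low-count filter through the aged and young libraries, so these p-values support nothing. For aged against young the log2 difference was 1.55 ± 1.97 (adjusted p = 0.744 in edgeR) and turned to -2.14 without aged 3. Within batches on the log2(CPM + 1) scale, aged+Ri minus aged was -0.54 in batch 1 and -0.05 in batch 2, and aged minus young was -1.82 in batch 2 and 2.97 in batch 3.

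Cebpd, a C/EBP factor of inflammatory and acute-phase responses, varied widely within each group. Its gene lies at chr16:15887286-15891031 on the + strand (GRCm38) and overlaps Spidr on the opposite strand. It had 8.59, 2.61 and 10.98 CPM in aged+Ri, 1.31, 3.65 and 63.5 CPM in aged and 0.121, 12.4 and 1.28 CPM in young libraries. Aged 3 and, within its group, young 2 were the high libraries, and the groups overlapped in every comparison. The log2 difference was -1.63 ± 1.48 for aged+Ri against aged (adjusted p = 0.834 in edgeR), and 1.52 without aged 3. For aged against young the difference was 2.31 ± 1.51 (adjusted p = 0.460 in edgeR), and -0.93 without aged 3. Aged+Ri against young gave 0.69 ± 1.45 (adjusted p = 0.814 in edgeR). With young 1, which held 6 counts, as the only young library, it was 7.591 for aged and 5.955 for aged+Ri against young. Within batches aged+Ri minus aged was 2.05 in batch 1 and 0.50 in batch 2 on the log2(CPM + 1) scale, opposite to the pooled sign; aged 3, the library of these 2 groups that was sequenced in batch 3, enters neither value. Spidr had 7.66, 18.6 and 28.0 CPM in aged+Ri, 9.49, 0.632 and 3.75 CPM in aged and 0.425, 0.230 and 0.513 CPM in young libraries.

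**Figure D3:**
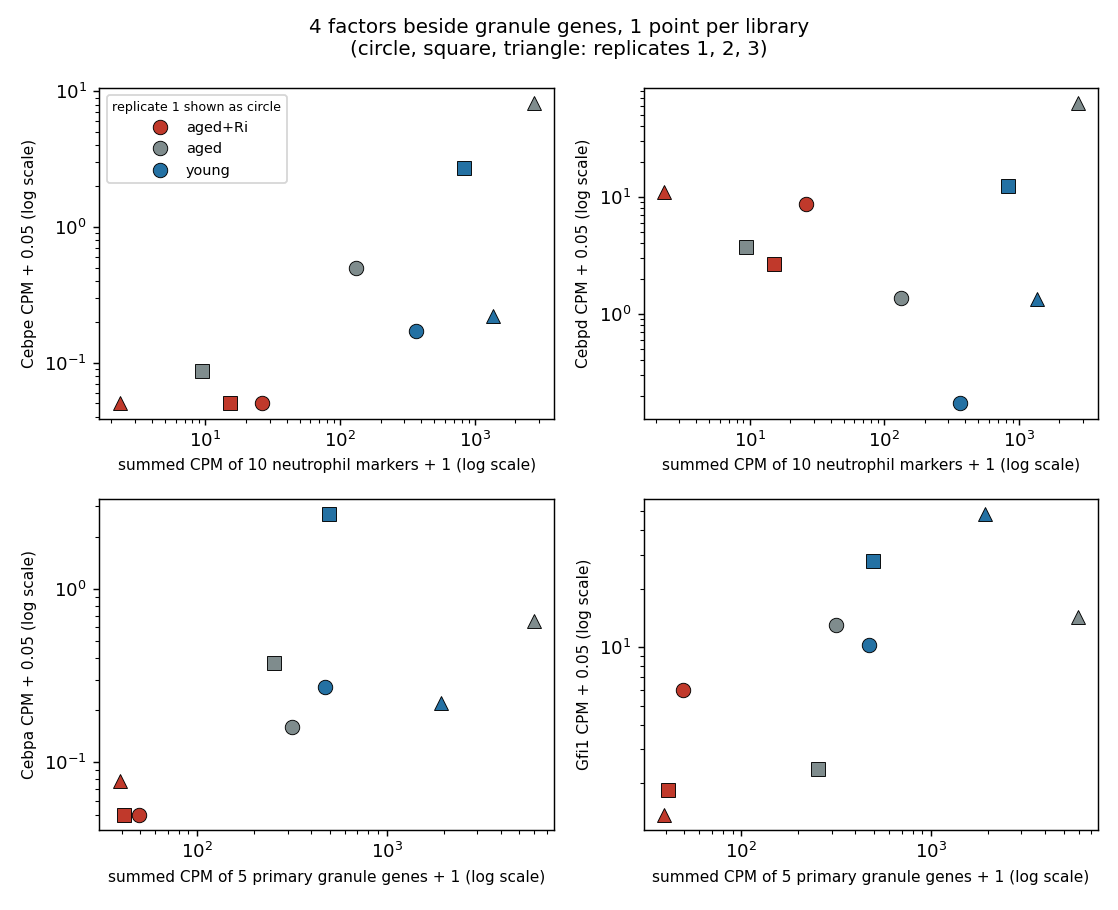
Cebpe and Cebpd are shown against the summed CPM of 10 neutrophil markers. Cebpa and Gfi1 are shown against that of 5 genes of primary granules and granulocyte precursors, labelled primary granule genes. There is 1 point per library, with colours for groups and log axes offset to show 0. Aged 3, with the highest sums (2742 and 5945 CPM), also has the highest Cebpe and Cebpd.

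The libraries that stood out for Cebpe and Cebpd also held transcripts of maturing granulocytes. The 10 neutrophil markers summed to 25.3, 14.2 and 1.32 CPM in aged+Ri, 131, 8.43 and 2742 CPM in aged and 366, 829 and 1367 CPM in young libraries. Between 2 and 7 of the 10 were at 0 in an aged+Ri library, between 2 and 4 in an aged library and at most 1 in a young library. Lcn2, a secondary granule protein, had 0.0562, 0 and 0 CPM in aged+Ri, 0.0273, 0 and 40.4 CPM in aged and 0.324, 13.1 and 0.171 CPM in young libraries. Lcn2 was the gene whose profile over the 9 libraries was nearest to that of Cebpe, with a root mean square difference of 0.179 between z-scored log2(CPM + 1) profiles, and Hp, which encodes haptoglobin, followed at 0.402. Young 3 had the highest neutrophil sum of its group with 6 counts of Cebpe, so the sums did not order the libraries as Cebpe did. The part of mature cells in the values of Cebpa, Cebpd and Cebpe was not tested.

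In terms of C/EBP transcripts per kilobase, Cebpb made up 96.7%, 98.9% and 95.9% of the 4 members in aged+Ri libraries. It made up 98.1%, 95.4% and 65.7% in aged libraries and 98.4%, 79.8% and 98.5% in young libraries. In aged 3, Cebpd took 24.4% and Cebpe 9.49%. In young 2, Cebpd took 10.3%, Cebpe 6.70% and Cebpa 3.15%. Cebpb was thus the main C/EBP transcript in each of the 9 libraries.

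**Figure D4:**
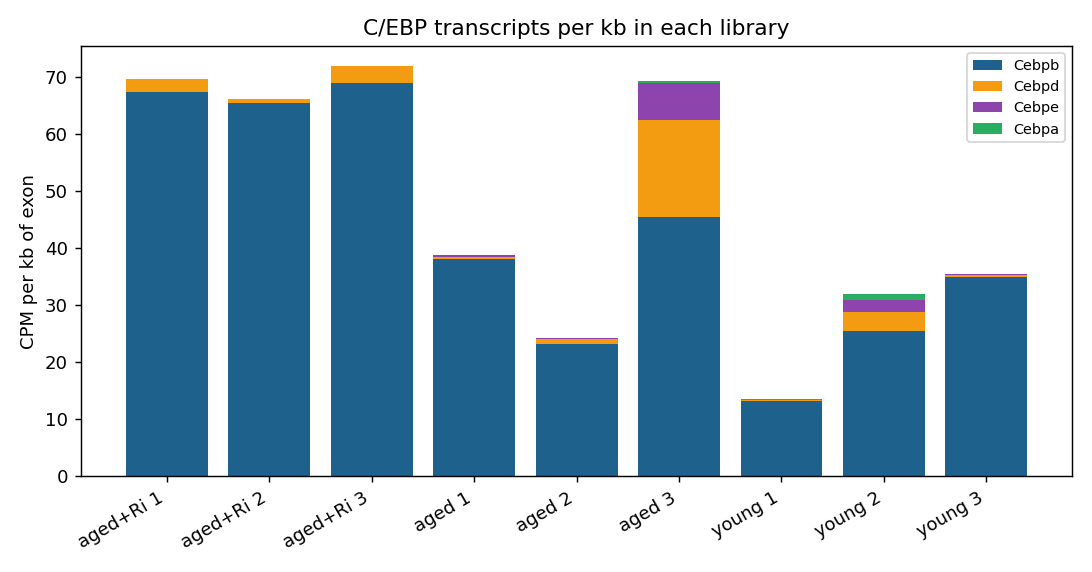
Stacked CPM per kilobase of Cebpb, Cebpd, Cebpe and Cebpa in each of the 9 libraries, with aged+Ri libraries at the left, aged in the middle and young at the right. Cebpb fills at least 65.7% of every bar, and the other members are visible mainly in aged 3 and young 2.

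Of 3 further C/EBP genes examined, 0 passed the adjusted threshold in edgeR. Cebpg, which lacks an activation domain and dimerises with other bZIP proteins, had 399, 159 and 211 CPM in aged+Ri, 71.1, 72.2 and 101 CPM in aged and 103, 56.1 and 172 CPM in young libraries. The aged+Ri libraries all exceeded the aged ones, by 1.66 ± 0.45 on the log2 scale (adjusted p = 0.335 in edgeR), and overlapped with the young ones. Ddit3, which encodes the stress factor CHOP, had 1103, 229 and 638 CPM in aged+Ri, 287, 290 and 338 CPM in aged and 145, 152 and 512 CPM in young libraries (adjusted p = 0.580 for aged+Ri against aged).

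Spi1, which encodes PU.1, had the highest mean of the factors per kilobase in each group and separated the groups as Cebpb did. Its 7 exon blocks lie between chr2:91082390-91115756 on the + strand (GRCm38). It had 212, 173 and 173 CPM in aged+Ri, 93.2, 85.4 and 133 CPM in aged and 53.7, 93.7 and 137 CPM in young libraries. All aged+Ri libraries lay above the 6 others, and aged and young overlapped. The log2 difference was 0.84 ± 0.37 for aged+Ri against aged, with a 95% interval of 0.04 to 1.63, and adjusted p = 0.516 in edgeR. The aged+Ri difference from young was 0.97 ± 0.37, with an interval of 0.18 to 1.77, and adjusted p = 0.147 in edgeR. With young 2 and young 3 left out, this difference was 1.85 (adjusted p = 0.0371 in edgeR). Aged against young gave 0.13 ± 0.37 (interval -0.65 to 0.92), and 1.02 with young 2 and young 3 left out (adjusted p = 0.285 in edgeR).

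In batch 1 Spi1 was 1.177 higher in aged+Ri than in aged on the log2(CPM + 1) scale, and 1.01 higher in batch 2. In batch 2 it was 0.88 higher in aged+Ri than in young. The profiles of Spi1 and Cebpb over the 9 libraries differed by a root mean square of 0.286, and each had rank 5 in the order of likeness to the other among 9513 genes. The genes nearest to Spi1 were Rab2a (0.249), Fbxo4 (0.268) and Med11 (0.279), and those nearest to Cebpb were Cox18 (0.247), Mapk1ip1 (0.259) and Sdhaf2 (0.268).

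Of 10 genes examined, other ETS genes with the Gfi1 paralogue, 0 passed the adjusted threshold in edgeR, 0 were higher and 2 lower in aged+Ri than in aged without overlap (7.85% of all genes were higher and 8.66% lower), and their median log2 difference was -0.52. Etv6, an ETS repressor needed by adult stem cells in the mouse, had 45.5 ± 11.5 CPM in aged+Ri and 132 ± 15.2 CPM in aged cells (log2 difference -1.54 ± 0.39, adjusted p = 0.296 in edgeR). Fli1, an ETS activator of stem and megakaryocytic cells, had 61.4 ± 29.99 CPM in aged+Ri and 125 ± 28.2 CPM in aged cells (log2 difference -1.03 ± 0.43, adjusted p = 0.492). Runx1, which binds upstream of Spi1 and activates it in the mouse, had 50.3, 137 and 70.6 CPM in aged+Ri, against 145, 202 and 188 CPM in aged libraries (log2 difference -1.05 ± 0.42, adjusted p = 0.477 in edgeR).

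Irf8, the interferon regulatory factor of monocytes and dendritic cells, was unevenly spread over the libraries of a group. Its gene has 11 exon blocks at chr8:120736358-120756694 on the + strand (GRCm38) and overlaps Gm20388 on the same strand. The counts were 3, 5 and 358 in aged+Ri, 149, 334 and 325 in aged and 156, 1437 and 561 in young libraries. In CPM these were 0.0842, 0.0864 and 10.1 in aged+Ri, 2.04, 6.04 and 5.17 in aged and 3.16, 36.7 and 16.0 in young libraries. Aged+Ri libraries 1 and 2 lay below every other library, and aged+Ri 3 lay above all aged libraries.

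The log2 difference for Irf8 was -0.37 ± 1.46 for aged+Ri against aged, with a 95% interval of -3.51 to 2.78 (adjusted p = 0.982 in edgeR), and -5.72 without aged+Ri 3 (adjusted p = 0.513). It was -2.08 ± 1.51 for aged against young (adjusted p = 0.512) and -2.44 ± 1.53 for aged+Ri against young (adjusted p = 0.351), where it was -7.82 without aged+Ri 3 (adjusted p = 0.0932) and 0.17 with young 2 and young 3 left out (adjusted p = 0.972 in edgeR). Within batches aged+Ri minus aged was -1.49 in batch 1 and -1.02 in batch 2, and aged minus young was -2.42 in batch 2 and -1.46 in batch 3, on the log2(CPM + 1) scale. The 10 dendritic cell markers summed to 150, 186 and 223 CPM in aged+Ri, 165, 520 and 1126 CPM in aged and 259, 102 and 463 CPM in young libraries. Their part in the Irf8 values was not tested. Of the 8 other interferon regulatory factors examined, 0 passed in any comparison and 0 had an unadjusted p below 0.05. Irf1, which interferons induce, had 27.6 ± 8.17 CPM in aged+Ri, 20.8 ± 6.92 CPM in aged and 27.4 ± 10.7 CPM in young cells. Of 6 antigen-presentation genes that Irf8 is known to support, 2 were lower in aged+Ri than in aged without overlap (8.66% of all genes were) and 0 passed the adjusted threshold.

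Gfi1 was lowest in aged+Ri and highest in young cells. The gene lies at chr5:107716657-107726036 on the - strand (GRCm38) and overlaps A430072P03Rik on the opposite strand. It had 5.95, 1.80 and 1.33 CPM in aged+Ri, 13.01, 2.31 and 14.2 CPM in aged and 10.2, 27.6 and 48.4 CPM in young libraries. The aged+Ri libraries were all below the young ones, and aged libraries overlapped with both. The log2 difference was -3.25 ± 0.96 for aged+Ri against young, with a 95% interval of -5.33 to -1.17, and adjusted p = 0.0906 in edgeR, and an adjusted p of 0.00288 in DESeq2. The difference was -1.70 ± 0.91 for aged+Ri against aged (adjusted p = 0.610 in edgeR, and -2.66 without aged+Ri 1 with adjusted p = 0.786) and -1.55 ± 0.90 for aged against young (adjusted p = 0.404). With young 1 as the only young library it was -1.70 for aged+Ri against young (adjusted p = 0.415 in edgeR) and 0.011 for aged against young. In the batches that held both groups, aged+Ri minus young was -3.49 in batch 2, and aged minus young was -3.11 in batch 2 and -1.70 in batch 3 on the log2(CPM + 1) scale.

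Gfi1b, the paralogue that serves erythroid cells, platelets and stem cells, had 53.8, 83.5 and 97.8 CPM in aged+Ri, 177, 119 and 84.7 CPM in aged and 17.7, 62.9 and 47.5 CPM in young libraries. Aged libraries exceeded the young ones by 1.57 ± 0.48 on the log2 scale (adjusted p = 0.201 in edgeR), where Gfi1 was lower. Of 6 corepressors through which Gfi1 acts, 0 passed in any comparison, and Kdm1a, the histone demethylase among them, had 94.7 ± 7.40 CPM in aged+Ri, 97.7 ± 15.4 CPM in aged and 87.3 ± 10.3 CPM in young cells.

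Zeb2, the median factor in both comparisons of aged+Ri cells, had lower values in aged+Ri than in young libraries. It spans chr2:44983632-45117395 on the - strand (GRCm38) and overlaps 5 other genes, its antisense gene Zeb2os among them. It had 28.1, 71.6 and 65.4 CPM in aged+Ri, 99.7, 94.6 and 66.7 CPM in aged and 140, 79.7 and 103 CPM in young libraries. The aged+Ri libraries were below the young ones without overlap and overlapped with the aged ones, and aged+Ri 1 was the lowest of the 9. The log2 difference was -0.97 ± 0.41 for aged+Ri against young (adjusted p = 0.181 in edgeR), -0.66 ± 0.41 for aged+Ri against aged (adjusted p = 0.680) and -0.31 ± 0.41 for aged against young (adjusted p = 0.756). In batch 2, which held both groups, aged+Ri minus young was -0.22 on the log2(CPM + 1) scale. With young 1 as the only young library the fitted difference was -1.29 (adjusted p = 0.150 in edgeR). Zeb1, its paralogue, had 34.6 ± 12 CPM in aged+Ri, 27.7 ± 4.13 CPM in aged and 66.4 ± 5.69 CPM in young cells. For Zeb1, aged minus young was -1.26 ± 0.42 on the log2 scale (adjusted p = 0.212 in edgeR), with no overlap between these 2 groups.

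Id2, which Zeb2 represses in mouse dendritic cell precursors, had its lowest value in young 3 and overlapped between the groups throughout. The gene lies at chr12:25093799-25097140 on the - strand (GRCm38). It had 78.1, 54.8 and 116 CPM in aged+Ri, 47.4, 140 and 78.3 CPM in aged and 71.6, 40.9 and 11.7 CPM in young libraries. The log2 difference was -0.09 ± 0.58 for aged+Ri against aged (interval -1.35 to 1.17), 1.10 ± 0.59 for aged against young (adjusted p = 0.366 in edgeR) and 1.01 ± 0.59 for aged+Ri against young (adjusted p = 0.318). With young 2 and young 3 left out it was 0.27 for aged+Ri against young (adjusted p = 0.810 in edgeR) and 0.37 for aged against young (adjusted p = 0.764). Within batches, aged minus young was 1.75 in batch 2 and 2.64 in batch 3 on the log2(CPM + 1) scale. Id1, of the same family, had 11.5, 6.93 and 5.31 CPM in aged+Ri, 0.601, 0.687 and 0.0477 CPM in aged and 0.0404, 5.79 and 4.19 CPM in young libraries. For Id1, aged+Ri minus aged was 4.14 ± 1.61 (adjusted p = 0.466 in edgeR). Of the E proteins that Id proteins bind, Tcf4 had 112 ± 25.0 CPM in aged+Ri, 129 ± 27.02 CPM in aged and 219 ± 38.1 CPM in young cells, with the young libraries above all others (adjusted p = 0.268 for aged against young), while Tcf3 and Tcf12 overlapped in each comparison.

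**Figure D5:**
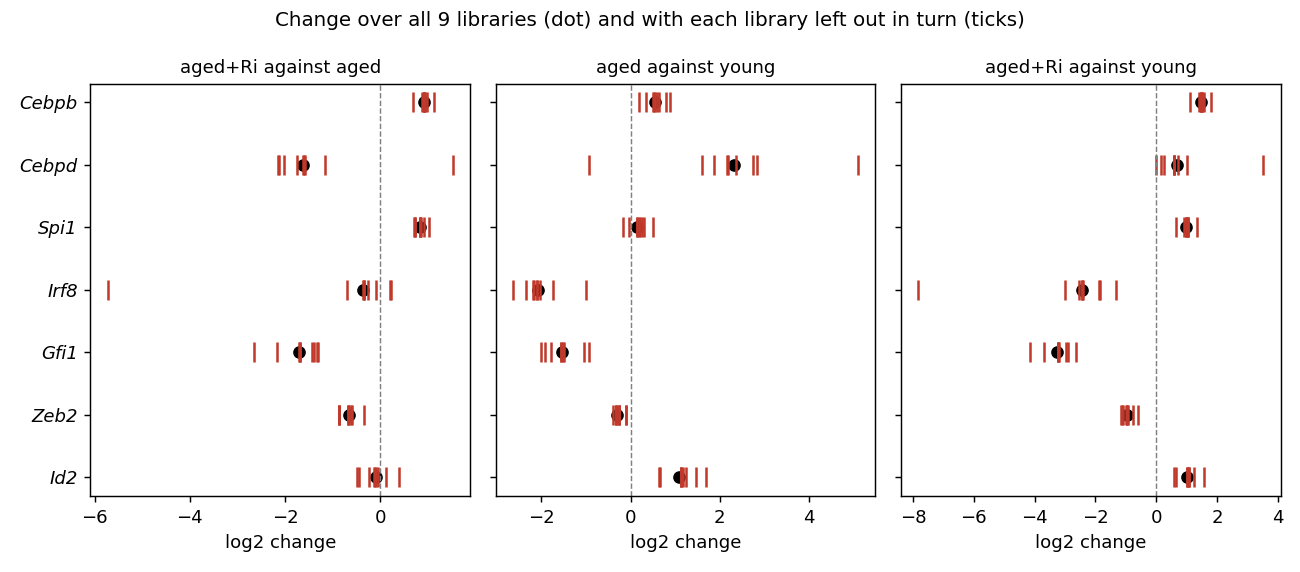
Log2 change of 7 factors in the 3 comparisons with all 9 libraries (dots) and with each library left out in turn (ticks). Ticks of Cebpb, Spi1 and Gfi1 stay on 1 side of 0 in both comparisons of aged+Ri cells, while those of Cebpd reach from -2.14 to 1.52 for aged+Ri against aged.

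Genes on which these factors are known to act were examined in lists by function. The first list held 5 genes of primary granules and granulocyte precursors, targets of C/EBP and PU.1 proteins. All 5 were lower in aged+Ri than in aged cells without overlap (8.66% of all genes tested were). In edgeR 0 passed the adjusted threshold. In aged+Ri libraries Mpo had 264, 0 and 0 counts, Elane 241, 0 and 2, Ctsg 65, 27 and 1 and Ms4a3 118, 0 and 0. These passed the low-count filter through the other groups, so their place in this count supports nothing. The median log2 difference of the 5 genes was -6.50, that of Ms4a3, which had 13.2, 16.8 and 267 CPM in aged libraries. This fitted value rests mostly on aged+Ri 1 and aged 3. Elane, neutrophil elastase, had 6.77, 0 and 0.0565 CPM in aged+Ri, 108, 113 and 4236 CPM in aged and 176, 221 and 976 CPM in young libraries. Prtn3, proteinase 3, had 29.2, 39.5 and 38.2 CPM in aged+Ri, 79.4, 65.1 and 504 CPM in aged and 50.4, 66.0 and 193 CPM in young libraries. The 5 genes summed to 48.5, 40.0 and 38.2 CPM in aged+Ri, 314, 253 and 5945 CPM in aged and 472, 494 and 1927 CPM in young libraries, and the part of granulocyte precursors among the sorted cells was not tested. Of 7 secondary granule genes tested, targets of Cebpe, 0 separated aged+Ri from aged and 4 were lower in aged+Ri than in young cells without overlap (19.9% of all genes were), with 0 past the adjusted threshold. Of 5 phagocyte oxidase genes, 1 was lower in aged+Ri than in aged cells without overlap (8.66% of all genes were) and 0 passed. Cyba, a membrane subunit of that enzyme, had 256 ± 11.8 CPM in aged+Ri, 282 ± 65.4 CPM in aged and 150 ± 44.5 CPM in young cells (adjusted p = 0.216 for aged against young in edgeR).

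Among 5 cytokine receptor genes, 1 was higher and 1 lower in aged+Ri than in aged cells without overlap (7.85% and 8.66% of all genes were), and 0 passed in any comparison. Csf1r, the M-CSF receptor gene that PU.1 activates, had 0.0562, 0.0346 and 0 CPM in aged+Ri, against 0.246, 1.16 and 3.23 CPM in aged libraries. Csf2rb, the common beta chain of the GM-CSF receptor, had 86.3, 225 and 147 CPM in aged+Ri, against 85.9, 70.3 and 83.3 CPM in aged libraries (log2 difference 0.94 ± 0.36, adjusted p = 0.465 in edgeR). Csf1r rested on 2, 2 and 0 counts in aged+Ri, below the 3 counts that a count of 0 allows, and had 0.5055, 0.179 and 3.57 CPM in young libraries. Spi1 was higher and Csf1r lower in aged+Ri than in aged cells. Within their groups, aged 3 and young 3 had the most of both genes.

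Of 11 myeloid surface and signalling genes, 6 were lower and 0 higher in aged+Ri than in aged cells without overlap (8.66% and 7.85% of all genes were), and 2 fell in aged+Ri against young cells past the adjusted threshold (0.489% of all genes did). Cd33, a sialic acid receptor of myeloid cells, had 0, 0.0173 and 0.0282 CPM in aged+Ri, 1.88, 2.98 and 27.7 CPM in aged and 25.1, 0.408 and 29.0 CPM in young libraries (adjusted p = 0.0298 for aged+Ri against young in edgeR). Ly6c2, a monocyte surface protein, had 4.27 ± 1.96 CPM in aged+Ri and 88.2 ± 32.7 CPM in young cells (log2 difference -4.37 ± 0.94, adjusted p = 0.0456 in edgeR). With each library left out in turn, Cd33 passed in 5 of 9 fits (adjusted p up to 0.119, the call ending without any aged+Ri library or young 1), and Ly6c2 in 3 of 9 (adjusted p up to 0.180, the call ending without any aged+Ri or young library). Ms4a6c, a membrane protein gene of monocytes, also fell in aged+Ri against young cells (adjusted p = 0.0257 in edgeR). It had 0, 0.00864 and 0.0282 CPM in aged+Ri and 25.3 ± 21.6 CPM in young libraries, and the call ended without any aged+Ri library (adjusted p up to 0.112). Cd33 and Ms4a6c had at most 1 count in each aged+Ri library and passed the low-count filter through the other groups. Their calls, and the place of Cd33 in the counts above, therefore support nothing. The 10 monocyte and macrophage markers, among them Ly6c2 and Ms4a6c, summed to 51.0 to 106 CPM in aged+Ri, 190 to 1885 CPM in aged and 144 to 571 CPM in young libraries, and their part in these results was not tested.

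Of 20 other regulators of myeloid fate, 19 were tested. In aged+Ri against young cells, 1 rose and 2 fell past the adjusted threshold (0.959% and 0.489% of all genes did). Without overlap, 2 were higher and 7 lower in that comparison (12.4% and 19.9% of all genes were). Klf4, which promotes monocyte differentiation, had 48.9, 67.2 and 67.9 CPM in aged+Ri, 0, 0.145 and 0.747 CPM in aged and 0.394, 0.315 and 0.413 CPM in young libraries. Its log2 difference was 7.36 ± 1.27 for aged+Ri against young (adjusted p = 0.0188 in edgeR) and 7.68 ± 1.28 for aged+Ri against aged (adjusted p = 0.124). Myb, a factor of progenitor growth, had 22.8, 80.3 and 66.6 CPM in aged+Ri, 237, 348 and 298 CPM in aged and 526, 346 and 600 CPM in young libraries (log2 difference -3.12 ± 0.44 for aged+Ri against young, adjusted p = 0.0116 in edgeR). Ikzf1, which encodes Ikaros, had 38.2 ± 10.1 CPM in aged+Ri and 134 ± 35.9 CPM in young cells (log2 difference -1.81 ± 0.39, adjusted p = 0.0418 in edgeR). Myb passed in 9 of 9 fits that left out 1 library and Klf4 in 8 of 9 (adjusted p = 0.0879 without aged+Ri 3, and 0.153 with young 2 and young 3 left out). Ikzf1 passed in 2 of 9, those without young 2 or young 3, with adjusted p-values up to 0.180.

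By the same measure of likeness, Ikzf5 (0.394) and Hnrnpul2 (0.449) were among the genes nearest to Cebpa. Those nearest to Cebpd were Wipi1 (0.455), Tm4sf1 (0.478) and Fbxo22 (0.494), and the third nearest to Cebpe was B4galt4 (0.407). For Irf8 they were Acss1 (0.401), Zfp931 (0.430) and Sh2d1a (0.440), and for Gfi1 they were Cactin (0.315), Bbs12 (0.318) and Clec11a (0.357). For Zeb2 they were Smim27 (0.250), Sdhaf4 (0.302) and Lyrm9 (0.317), and for Id2 they were Polr1e (0.203), Eef2kmt (0.322) and Iqcb1 (0.332). Cebpd and Cebpe differed by 0.682 from each other and Cebpe and Cebpa by 0.794, more than the nearest genes of each did.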

How the data were processed

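RNA sequencing libraries (SMART-Seq v4 and Nextera XT, per the labels' protocols) of 9 samples were given as 1 table of estimated counts per gene, deposited by the authors, in which 71.6% to 80.9% of the values of a library were whole within 0.005. Per the submitters' processing notes, cutadapt 1.18, STAR 2.7.0, SAMtools 1.14, featureCounts and R 4.2.0 were used with GRCm38; strand and treatment of shared reads are not given in the sources used here. Fractional values occurred for Zeb2 in 6 libraries, Id2 in 4, Cebpb in 2 and Spi1 in 1.

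Estimated counts were rounded to whole numbers. Genes were kept by filterByExpr (15127 of 21939), scaled by TMM and fitted in 1 quasi-likelihood model of group means over the 9 libraries (edgeR 4.0.16, R 4.3.3), with 6 residual degrees of freedom among libraries. The F-tests were two-sided with Benjamini-Hochberg adjustment over all genes tested and a threshold of 0.05. Fitted changes of Cebpa and Cebpe depend on the prior count where aged+Ri has 0 or 1 count, so ratios of group totals with exact Poisson 95% intervals, or bounds at 3 counts over the group, are given instead. Within-batch values use log2(CPM + 1); young 1, sequenced in batches 1 and 3, enters none of them, and no batch holds enough libraries for a test. The labels do not say that a replicate number marks a shared mouse or day, and the main fit used no pairing.

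The 9 factors, the lists of related genes and cell markers and the tests were chosen with earlier results of these data known. Named genes were the 9 factors, up to 3 genes per list and comparison with the smallest p, a set of further regulators, and for each factor the 3 genes of nearest profile among 9513 with a mean of at least 5 CPM. A gene near to Cebpa in profile is not reported here. Loci are from GENCODE M21 and promoters from RefSeq. No 2 libraries of the same group agreed within sampling noise, and libraries of different groups were not compared in this way. Alternatives were limma-voom with sample weights (limma 3.58.1), DESeq2 1.42.0 and its size factors in edgeR, edgeR's newer quasi-likelihood method, no filter or a stricter one, a fit to the compared pair of groups, a replicate block, a batch term, each library left out, and young 2 and young 3 left out.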

Additional observations from a re-analysis of the deposited data

How the results depend on the processing

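The count of factors past the adjusted threshold was 0 in edgeR for each comparison. For aged+Ri against aged it was 1 in DESeq2 (Cebpe, with 320 of all genes passing) and 0 in the other alternatives. Cebpa and Cebpe were not tested under the stricter filter, nor in the comparisons of aged+Ri cells with only the 2 groups fitted, so the counts there cover 7 factors. For aged+Ri against young it was 4 in DESeq2 (Cebpa, Cebpb, Cebpe and Gfi1, adjusted p between 0.00288 and 0.0244), where 1862 of all genes passed. Cebpa and Cebpe passed the low-count filter through the other groups, so their calls in DESeq2 support nothing. In limma-voom the count was 1 (Cebpb, adjusted p = 0.0454), and it was 0 to 1 with each library left out (Cebpb, without young 3). For aged against young it was 0 throughout. The cause of these differences was not tested. Cebpb and Spi1 kept a positive sign for aged+Ri against aged (log2 0.68 to 1.17 and 0.71 to 1.07) and against young (1.11 to 2.40 and 0.65 to 1.85) in every alternative run.

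The sign turned for other factors, with adjusted p above the threshold each time, and the cause was not tested. For aged+Ri against aged, Cebpd was 0.14 and Id2 0.071 on the log2 scale in limma-voom, and Cebpd was 0.73 with batch as a covariate. With 1 library left out, Cebpd ranged from -2.14 to 1.52, Id2 from -0.49 to 0.40 and Irf8 from -5.72 to 0.22. For aged against young with batch as a covariate, Cebpd was -0.11, Cebpe -0.81, Spi1 -0.12 and Zeb2 0.038, and with 1 library left out Cebpd ranged from -0.93 to 5.10, Cebpe from -2.14 to 4.33, Spi1 from -0.18 to 0.51 and Cebpa from -2.25 to 0.89. With young 2 and young 3 left out, Cebpa was 0.69, Irf8 0.55 and Gfi1 0.011 for aged against young, and Irf8 was 0.17 for aged+Ri against young, for which Cebpd ranged from -0.0021 to 3.52 with 1 library left out.

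The number of genes called over all genes moved more than the factors did. It was 0 in edgeR for aged+Ri against aged but 320 in DESeq2 and 55 in limma-voom. It was 5 for aged against young but 744 and 18, and 219 for aged+Ri against young but 1862 and 626. In the same order of comparisons it was 5, 21 and 463 with edgeR's newer method, 11, 20 and 291 without a filter, 2, 1 and 57 with only the groups compared, 16, 7 and 154 with batch as a covariate, and 40, 358 and 735 with young 2 and young 3 left out. With 1 library left out it was 0 to 6, 2 to 80 and 18 to 532 in these comparisons. Of the 7 listed genes called for aged+Ri against young, Klf4 and Myb kept the call with batch as a covariate, where Ikzf1, Cd33, Ly6c2, Ms4a6c and Procr had adjusted p-values between 0.061 and 0.134. After the data were seen, non-overlap was counted again: 5 of 9 factors separated aged+Ri from aged without aged 3 (28.3% of all genes), 3 separated aged from young without young 1 (34%), 8 separated aged+Ri from young without young 1 (41.8%), and with young 2 and young 3 left out 4 and 7 did (64.5% and 70.4%).

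For same-numbered libraries of different groups, the correlations of deviations from the group means lay between -0.07 and 0.14, with 3 of 9 over 0.1. For differently numbered libraries they lay between -0.171 and 0.168. No pairing by number was seen, but with 3 libraries per group these correlations cannot exclude shared mice or days. With the replicate block, 0 factors were called in each comparison, 2, 6 and 226 genes were called over all genes, and Cebpd was 0.031 for aged+Ri against aged. Of the 9 libraries, 2 correlated best with their own number in both other groups.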

Other observations

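Markers of the other mature blood cells also differed in their sums. The 8 mast cell and basophil markers summed to 0 to 5.34 CPM in aged+Ri, 23.1 to 274 CPM in aged and 3.09 to 103 CPM in young libraries. The 10 T and NK cell markers summed to 3.57 to 31.9 CPM in aged+Ri, 106 to 302 CPM in aged and 81.5 to 201 CPM in young libraries. The 8 erythroid markers summed to 1590 to 2399 CPM in aged+Ri, 1818 to 2814 CPM in aged and 1205 to 2248 CPM in young libraries, which overlap. Car2 made up most of each sum. Of the 6 tested, 1 was higher (Hba-a1) and 1 lower (Car2) in aged+Ri than in aged without overlap (7.85% and 8.66% of all genes were). Hba-a1 had 620, 428 and 900 CPM in aged+Ri, 28.2, 13.9 and 2.74 CPM in aged and 257, 18.0 and 2.31 CPM in young libraries. The 6 megakaryocyte markers summed to 7 to 121 CPM in aged+Ri, 66.5 to 465 CPM in aged and 101 to 247 CPM in young libraries. The 8 B cell markers in the table summed to 67.0 to 136 CPM in aged+Ri, 60.9 to 661 CPM in aged and 183 to 13520 CPM in young libraries. In edgeR, 0 genes of these 5 lists passed the adjusted threshold in any comparison.

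Rhoa, which encodes the target of Rhosin, had 435, 260 and 360 CPM in aged+Ri, 168, 168 and 209 CPM in aged and 87.1, 139 and 193 CPM in young libraries. The aged+Ri libraries lay above all others, by 0.96 ± 0.34 on the log2 scale against aged (adjusted p = 0.434 in edgeR) and by 1.33 ± 0.34 against young (adjusted p = 0.0681). Procr, an LT-HSC surface marker, had 269 ± 123 CPM in aged+Ri and 69.3 ± 24.6 CPM in young cells and rose past the threshold in that comparison (log2 difference 1.96 ± 0.42, adjusted p = 0.0394 in edgeR). That call held in 2 of 9 fits that left out 1 library, those without aged+Ri 2 or young 2, with adjusted p-values up to 0.171.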
